A study of Mus musculus with 44 samples.

Results

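Cirbp and Rbm3 are the 2 best known cold-inducible RNA-binding protein genes of mammals, and they were followed here in mouse kidney over the day as whole genes and as single transcripts. They were chosen by name, as 2 of the 24733 genes with any value in the kidney RNA table and 18 of its 88198 transcript rows. Cirbp (ENSMUSG00000045193; GRCm38 chromosome 10, 80165985 to 80172786, plus strand) had 7 of its 7 annotated transcripts in the table. Rbm3 (ENSMUSG00000031167; GRCm38 chromosome X, 8138975 to 8145880, minus strand) had 11 of 11.

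The kidneys came from 129SV mice aged 8 to 12 weeks after birth, all under night-restricted feeding, in which food is given during the dark phase. Wild-type mice (WT) were set beside Bmal -/- mice (KO), which lack the clock activator encoded by Arntl. Each genotype was sampled at zeitgeber time (ZT, hours after lights on) 0, 4, 8, 12, 16 and 20, with 2 polyA RNA libraries per genotype and time, lettered A and B, so 24 libraries in 12 groups. The labels do not say whether A and B are separate animals. The p-values therefore measure the spread between these libraries, and how much of it is technical is unknown. At KO ZT4 and KO ZT12, library A lay far from library B in some clock or Y-linked genes, as given below.

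CIRBP and RBM3 are small proteins with a single RNA recognition motif and a glycine-rich tail, and both accumulate when cells are cooled by a few degrees. Body temperature falls and rises every day, and Cirbp and Rbm3 follow such cycles in several tissues; CIRBP has been tied to the amplitude of clock gene rhythms, and both proteins to the choice of polyadenylation site. The level of each mRNA is thought to depend on how its precursor is spliced. In Rbm3 an exon with an early stop codon is more often included in warm cells, which exposes the mRNA to nonsense-mediated decay.

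The sequences that set the transcripts apart are shown first, because isoform use over the day is described with them. All were read from the GRCm38.p6 genome, and each line begins with the last 30 bases of the exon that both transcripts share. In Rbm3-203, the most abundant coding transcript, that exon (ending at chrX:8144573-8144602, minus strand) is joined to the next coding exon (first 30 bases: chrX:8143918-8143947). In Rbm3-208, annotated as a target of nonsense-mediated decay, it is joined to a 271-base exon at chrX:8144175-8144445 that Rbm3-203 lacks. That exon adds 60 coding bases and then the stop codon, given in capitals, and leaves a coding sequence of 270 bases against 462 in Rbm3-203.
Rbm3-203: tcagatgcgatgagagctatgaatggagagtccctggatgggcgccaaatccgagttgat
Rbm3-208: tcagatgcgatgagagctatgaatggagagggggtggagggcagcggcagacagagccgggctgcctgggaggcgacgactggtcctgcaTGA

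Cirbp transcripts differ at their 3′ ends. Cirbp-202, the main coding form, runs from the shared exon (its last 30 bases at chr10:80170735-80170764, plus strand) into a last exon at chr10:80170982-80171655. Cirbp-201, annotated as a target of nonsense-mediated decay, skips that exon and joins one at chr10:80172414-80172512. The stop codons are in capitals, and the coding sequence has 516 bases in Cirbp-202 and 504 in Cirbp-201.
Cirbp-202: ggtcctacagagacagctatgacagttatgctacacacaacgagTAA
Cirbp-201: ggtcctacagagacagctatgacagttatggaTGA

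The Cirbp promoter is shown because a short element in it, TCCCCGCC, has been tied to induction of the gene by mild cold. RefSeq's promoter table (GRCm38.p6) matched 1 of the 2 genes, Cirbp, with 2 start sites, and the 250 bases before the first of them (chr10:80167589-80167838, plus strand) are given with the element in capitals.
Cirbp promoter: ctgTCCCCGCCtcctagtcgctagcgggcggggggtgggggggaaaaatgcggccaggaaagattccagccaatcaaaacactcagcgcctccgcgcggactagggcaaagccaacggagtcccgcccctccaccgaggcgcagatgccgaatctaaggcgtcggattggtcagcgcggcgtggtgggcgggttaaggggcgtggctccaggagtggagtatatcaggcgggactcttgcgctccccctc

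The element occurred once, 247 bases before that RefSeq start, and it was present on either strand in 4.64% of 32851 promoter windows of the same length. Cirbp-202 is annotated from chr10:80167778, so its first bases lie inside the Cirbp window. None of the other motifs searched on both strands was in this window: CACGTG (in 6.02% of windows), TTATGTAA (0.819%), GAANNTTC (6.69%), TGACGTCA (1.55%) and AGGTCA (14.0%). These are matches of letters only, and no binding was measured.

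**Figure D1:**
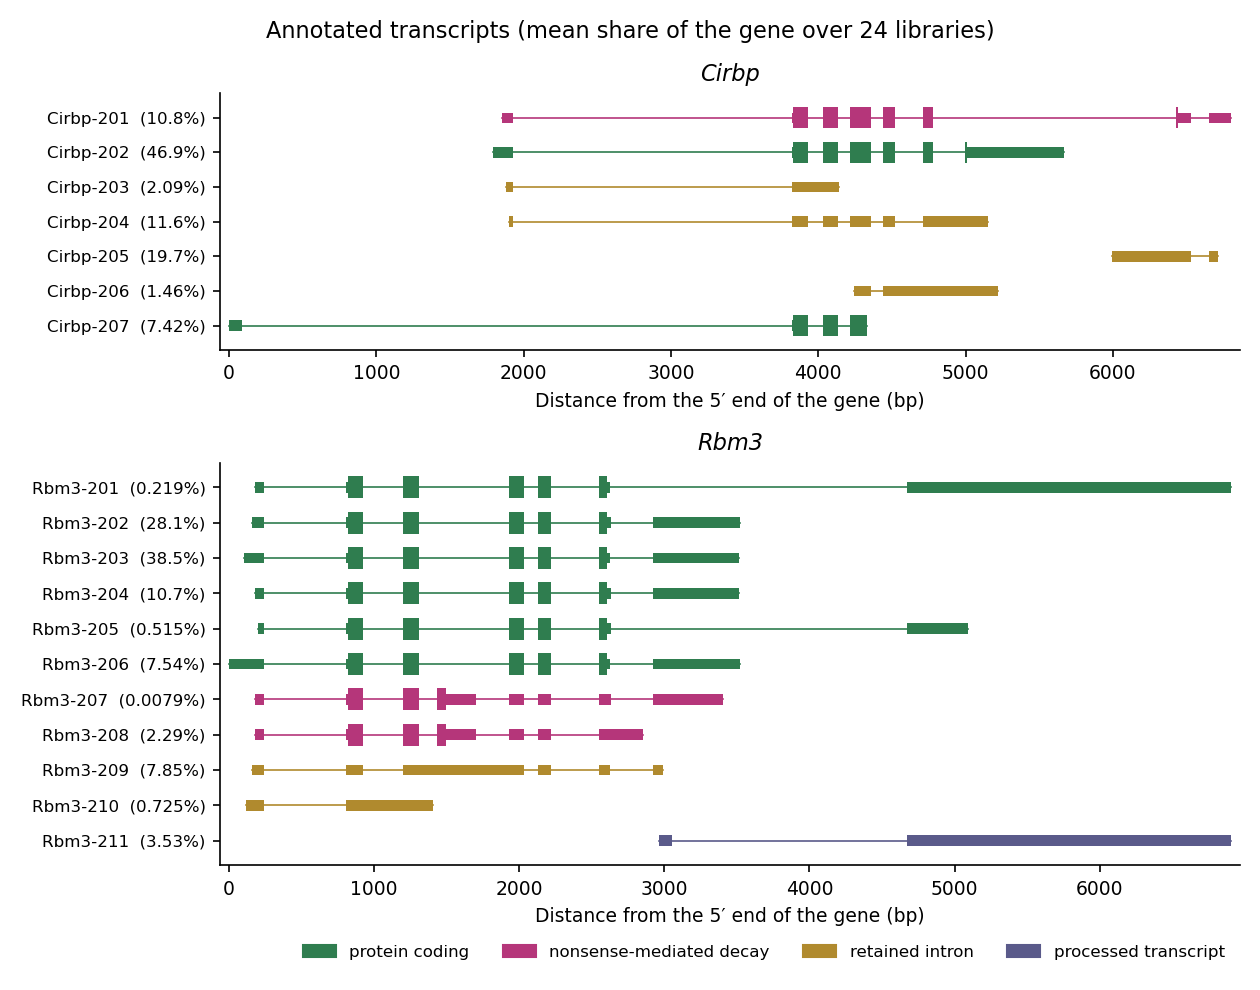
Annotated transcripts of Cirbp (upper, 7) and Rbm3 (lower, 11) drawn to scale from the 5′ end of each gene in base pairs; thin boxes are exons, tall boxes coding sequence, lines introns, colours the annotated type, and the percentage is the transcript's mean share of its gene's TPM over the 24 libraries. Cirbp-202 (46.9%) and Rbm3-203 (38.5%) were the most abundant forms; Rbm3-211 lies mostly beyond the 3′ end of Rbm3-203.

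2 libraries stood apart, and the main results on KO are given with and without them. KO ZT4 A had 23.8 TPM of the clock repressor gene Nr1d1, against 1.23 to 3.46 TPM in the other 11 KO libraries. It had 1.04 TPM of Cry1 against 11.5 to 17.8 TPM in those libraries. In WT, Nr1d1 peaked in the light phase (fitted peak at ZT 8.13) and Cry1 in the dark phase (ZT 19.01). High Nr1d1 with low Cry1 is therefore a daytime pattern of WT. Whether KO ZT4 A is a wild-type sample under a KO label was not tested. That question bears on every KO result that includes this library. KO ZT12 A had 0.0990 TPM of the Y-linked gene Ddx3y against 11.7 to 17.5 TPM in the other 23 libraries. Y-linked Eif2s3y (0.288 against 25.3 to 38.8 TPM) and Uty (0.655 against 5.85 to 7.68 TPM) were low there too. Y-linked Kdm5d was less far from the others, at 2.27 against 3.74 to 5.42 TPM. Any bearing of this on X-linked Rbm3 was not tested. Arntl itself was still measured in KO, at 4.19 to 6.28 TPM, against 0.295 to 12.9 TPM in WT, so its summed level does not check the label. Each library held 12398 to 12911 genes at 1 TPM or more, and all 10 kidney markers were above 0 in every library. Their summed level was 34479 to 44429 TPM in WT and 14221 to 39469 TPM in KO. Most of it came from Kap, a kidney androgen-regulated gene, with a mean of 36499 TPM in WT and 21880 TPM in KO, while the collecting duct gene Aqp2 had 124 and 195 TPM. Summed levels of the other cell types' markers overlapped between the genotypes: blood (4 genes) 824 to 2084 TPM in WT and 1050 to 2543 in KO, leukocyte (3) 16.5 to 70.0 and 21.1 to 31.2, fat (3) 0.0679 to 18.0 and 0.0412 to 12.7, adrenal (4) 0.724 to 1.09 and 0.871 to 1.45, and liver (3) 18.4 to 73.9 and 58.2 to 120. Most of the liver sum came from Ttr, with a mean of 48.95 TPM in WT and 88.5 TPM in KO. Apoa1 had 0.523 and 0.727 TPM, while Alb was lower in KO, with 2.51 and 0.601 TPM. No list was at 0 throughout, and Ucp1 and Plin1 of fat and Cyp11b1 and Cyp21a1 of adrenal were at 0 in 1 to 7 libraries. The part of these cells in the results was not tested. In bulk tissue, fewer cells of a type and less RNA per cell cannot be told apart.

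Cirbp was high from ZT4 to ZT12 and low from ZT16 to ZT0 in WT kidneys. At ZT8 its level was 66.8 and 58.6 TPM (a value scaled for transcript length and library total) in libraries A and B, and at ZT0 it was 18.8 and 22.3 TPM. It stood at 44.9 and 52.8 TPM at ZT4, at 50.8 and 47.6 TPM at ZT12, at 23.96 and 26.5 TPM at ZT16 and at 27.2 and 30.5 TPM at ZT20. No library from ZT4 to ZT12 overlapped one from ZT16, ZT20 or ZT0. A 24-hour cosine fitted on log2(TPM + 0.1) rose from trough to peak by 1.49 (SE 0.23) with the peak at ZT 8.47 (SE 0.60 h; adjusted p = 0.000907 over 12874 genes). By this test 13.7% of genes were rhythmic in WT, with a median peak-to-trough difference of 0.52 among those called and 0.25 over all genes tested. Cirbp's fitted difference was exceeded by 347 of the 12874 genes.

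Rbm3 rose later and less than Cirbp in WT. Its lowest levels were 44.6 and 48.0 TPM at ZT0, and its highest were 80.6 and 90.7 TPM at ZT12. It stood at 54.4 and 72.0 TPM at ZT4, at 76.7 and 81.3 TPM at ZT8, at 80.3 and 84.4 TPM at ZT16 and at 59.1 and 51.7 TPM at ZT20. Every library from ZT8 to ZT16 was above every library of the other times. The fitted peak-to-trough difference was 0.89 (SE 0.17) on the log2 scale, with the peak at ZT 11.7 (SE 0.71 h; adjusted p = 0.00339), and 811 genes had a larger one. At ZT16, when Cirbp had already fallen below its ZT4 level, Rbm3 was still close to its ZT12 level.

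**Figure D2:**
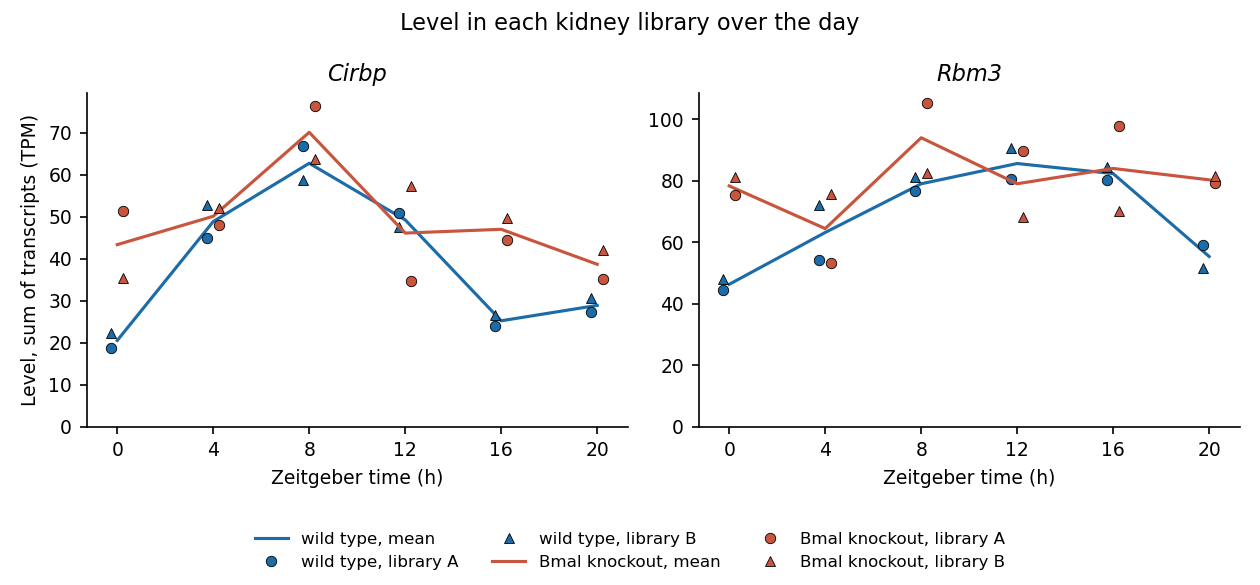
Levels of Cirbp (left) and Rbm3 (right) in TPM, summed over transcripts, against zeitgeber time in hours; circles are library A, triangles library B, and lines join the means of the 2 libraries of each group. WT Cirbp spans 18.8 to 66.8 TPM and WT Rbm3 44.6 to 90.7 TPM, while the KO libraries stay above the WT trough for both genes.

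In KO kidneys neither gene passed the rhythm test, which 3.64% of genes passed. Cirbp was still highest at ZT8, at 76.4 and 63.7 TPM. The other KO levels were 51.4 and 35.3 TPM at ZT0, 48.0 and 52.1 TPM at ZT4, 34.8 and 57.4 TPM at ZT12, 44.4 and 49.5 TPM at ZT16, and 35.2 and 42.1 TPM at ZT20. The pairs at ZT0 and ZT12 lay far apart, and all KO libraries other than the ZT8 pair fell between 34.8 and 57.4 TPM. The fitted peak-to-trough difference was 0.62 (SE 0.23), with the peak at ZT 7.92 (SE 1.43 h; adjusted p = 0.230, unadjusted p = 0.0466). Without KO ZT4 A and KO ZT12 A it was 0.81 (adjusted p = 0.0698).

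Rbm3 in KO was 75.5 and 81.2 TPM at ZT0, 53.4 and 75.6 TPM at ZT4, and 105 and 82.7 TPM at ZT8. It was 89.8 and 68.3 TPM at ZT12, 97.7 and 70.3 TPM at ZT16, and 79.2 and 81.5 TPM at ZT20. Library A and library B differed by more at ZT4, ZT8, ZT12 and ZT16 than at any time in WT, and the groups overlapped across most of the day. The fitted difference was 0.22 (SE 0.17; adjusted p = 0.671), close to the median of 0.21 over all genes tested in KO, and 0.10 without the 2 libraries that stood apart. The difference in rhythm between genotypes, which 0.629% of genes passed, did not pass for Cirbp (adjusted p = 0.363, unadjusted p = 0.0483) or for Rbm3 (adjusted p = 0.281, unadjusted p = 0.0220). Without the 2 libraries that stood apart these adjusted p-values were 0.438 and 0.133. A rhythm called in WT and not in KO is therefore not shown to differ between them.

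The largest differences between the genotypes were found at ZT0, the WT trough. At that time both KO libraries were above both WT libraries for both genes, by 1.05 on the log2 scale for Cirbp (SE 0.20, adjusted p = 0.00962) and by 0.76 for Rbm3 (SE 0.19, adjusted p = 0.0206). At ZT16 Cirbp was higher in KO by 0.89 (SE 0.20, adjusted p = 0.00854), while the Rbm3 difference was 0.01 (SE 0.19, adjusted p = 0.976). At ZT20 both KO libraries were again above both WT libraries, but the differences of 0.42 for Cirbp (adjusted p = 0.263) and 0.54 for Rbm3 (adjusted p = 0.1198) did not pass. At ZT4, ZT8 and ZT12 neither gene passed, with differences between -0.14 and 0.16 for Cirbp and between -0.13 and 0.24 for Rbm3. Without KO ZT4 A and KO ZT12 A the Cirbp difference was 0.099 at ZT4 and 0.22 at ZT12, where its sign turned, and the Rbm3 difference was 0.27 at ZT4 and -0.32 at ZT12; none of these passed (adjusted p = 0.252 to 0.748).

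The share of all genes called higher in KO was 10.7% at ZT0, 0% at ZT4, 11.1% at ZT8, 31.9% at ZT12, 17.0% at ZT16 and 2.39% at ZT20. The 0 at ZT4 stood beside 1518 genes higher in KO at an unadjusted p under 0.05. The ZT0 call for Cirbp was lost without WT ZT0 A or KO ZT0 A (adjusted p up to 0.0996), its ZT16 call without WT ZT16 A (adjusted p = 0.0812), and the ZT0 call for Rbm3 without any 1 of the 4 libraries at that time (adjusted p up to 0.124).

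**Figure D3:**
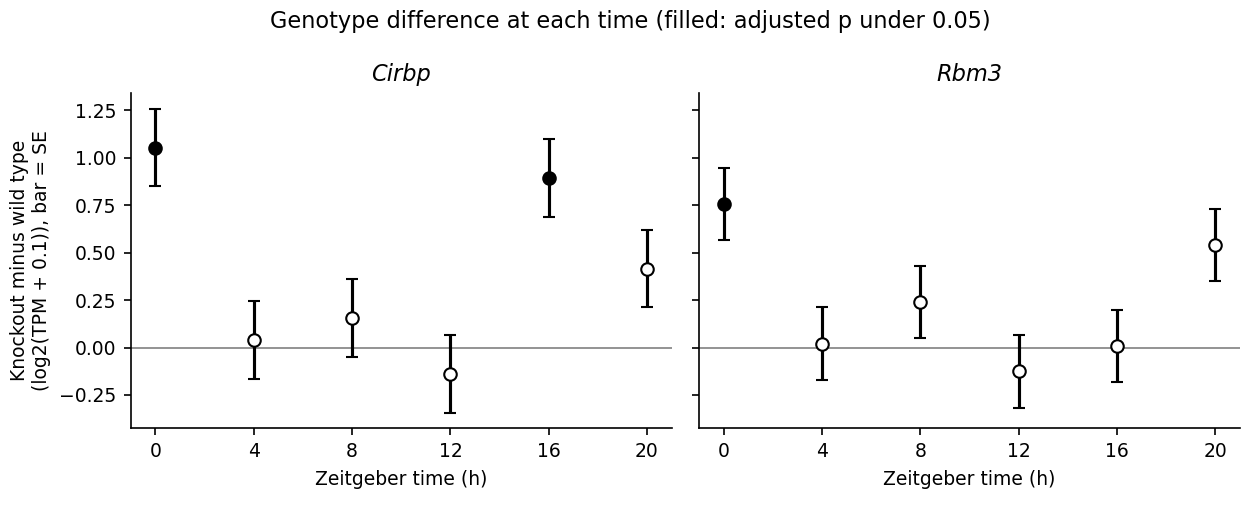
Difference between KO and WT (log2(TPM + 0.1), KO minus WT) for Cirbp and Rbm3 at each zeitgeber time; points are differences of means of 2 libraries, bars 1 SE, and filled points passed at an adjusted p under 0.05. Cirbp is filled at ZT0 and ZT16 and Rbm3 at ZT0, and both lie near 0 at ZT4 and ZT12.

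Averaged over the 6 times, Cirbp was higher in KO by 0.40 (SE 0.12, adjusted p = 0.00876) and Rbm3 by 0.24 (SE 0.10, adjusted p = 0.0400). Without the 2 libraries that stood apart the differences were 0.51 (adjusted p = 0.000594) and 0.28 (adjusted p = 0.0210). In the same fit 50.9% of all genes were called higher in KO and 10.0% lower, with a median of 0.15, so a higher level in KO was the common case among genes. Scaling the libraries by the median of ratios moved the median of all genes to 0.00 and the calls to 22.1% higher and 22.2% lower, and neither gene passed (Cirbp 0.26, adjusted p = 0.116; Rbm3 0.092, adjusted p = 0.473). Mitochondrial transcripts made up 40.5% ± 1.31 of TPM in WT and 37.6% ± 1.97 in KO (SD, n = 12 each), and rescaling without them gave a median of 0.08 and an Rbm3 difference of 0.18 (adjusted p = 0.145). The Rbm3 call was also lost in 14 of the 24 fits that left out 1 library.

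Ordered by mean level, the 12 groups of Cirbp began with KO ZT8 (70.0 TPM) and WT ZT8 (62.7 TPM), whose libraries overlapped and lay above those of the next groups in the order. KO ZT4, WT ZT12, WT ZT4, KO ZT16, KO ZT12, KO ZT0 and KO ZT20 followed, from 50.1 to 38.7 TPM, each overlapping its neighbour. WT ZT20 (28.9 TPM), WT ZT16 (25.2 TPM) and WT ZT0 (20.5 TPM) came last and did not overlap each other. For Rbm3 the order ran from KO ZT8 (94.0 TPM) to WT ZT20 (55.4 TPM) with every neighbour overlapping, and WT ZT0 (46.3 TPM) alone lay below the group before it. Rbm3 was the more abundant of the pair in 24 of 24 libraries on this per-length scale.

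Not all of the transcripts followed their genes in step. Of the 18 transcripts, 12 had a mean of at least 1 TPM and were tested: 5 of Cirbp and 7 of Rbm3. Cirbp-203, Cirbp-206, Rbm3-201, Rbm3-205 and Rbm3-210 fell below that mean, as did Rbm3-207, which was listed at 0 in 23 libraries. As levels, 4 of the 12 were rhythmic in WT (6.89% of all 26201 transcripts tested): the coding forms Cirbp-202, Rbm3-202 and Rbm3-203 and the intron-retaining Cirbp-204. None passed in KO (1.26% of all transcripts), and none for the difference in rhythm (0.256%; 3 of 12 at an unadjusted p under 0.05). Cirbp-201, Cirbp-204, Cirbp-205 and Rbm3-202 were higher in KO, by 0.35 to 0.47, beside 31.9% of all transcripts. All 4 of these calls were lost with median-of-ratios scaling (adjusted p = 0.0650 to 0.282), and that of Rbm3-202 also in 11 of the 24 fits that left out 1 library. Without KO ZT4 A and KO ZT12 A, Cirbp-202 passed too (0.49, adjusted p = 0.0148).

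Cirbp-202 carried most of the daily change of its gene. In WT it rose from 6.71 and 8.23 TPM at ZT0 to 37.8 and 33.8 TPM at ZT8, a fitted peak-to-trough difference of 2.11 (SE 0.30, adjusted p = 0.000721). The decay-annotated Cirbp-201 stayed between 2.58 and 5.31 TPM in all 12 WT libraries, with a fitted difference of 0.26 (SE 0.22, adjusted p = 0.739). Cirbp-205, which lies in the far 3′ end of the gene and retains an intron, held 3.45 to 9.91 TPM in WT and 5.17 to 15.5 TPM in KO.

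The make-up of Cirbp RNA changed over the WT day. Cirbp-202 made up 35.7% and 37.0% of Cirbp at ZT0, 51.8% and 57.0% at ZT4, 56.6% and 57.6% at ZT8, 52.0% and 57.1% at ZT12, 41.2% and 44.9% at ZT16 and 43.7% and 39.6% at ZT20. The 3 times from ZT4 to ZT12 did not overlap the others. On the log2 scale of the transcript against the rest of its gene, used for every share test here, the difference was 1.19 (SE 0.17) with the peak at ZT 8.76 (SE 0.54 h; adjusted p = 0.00383 over 20307 shares). This test called 0.492% of shares. The opposite course was seen in Cirbp-201, whose share was 17.4% and 16.4% at ZT0 and 7.54% and 6.12% at ZT8, but which did not pass (1.38, SE 0.29, peak at ZT 20.5, adjusted p = 0.0706). Cirbp-205 moved by 0.83 (SE 0.21, peak at ZT 20.4, adjusted p = 0.143), and Cirbp-204 by 0.07 (adjusted p = 0.993).

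In KO the share of Cirbp-202 lay between 39.6% and 53.5%, inside the WT range, with the ZT8 pair at 53.5% and 51.3%. Its fitted difference was 0.52 (SE 0.17, adjusted p = 0.735, unadjusted p = 0.0205). At ZT0, Cirbp-202 made up 45.6% and 43.3% in KO, above both WT libraries. The limma share difference at that time was 0.48 (SE 0.17) and did not pass (adjusted p = 0.607, unadjusted p = 0.0145). Cirbp-201 in KO ran from 6.09% to 14.6%.

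For Rbm3, 3 forms that do not code for the full protein, Rbm3-208, Rbm3-209 and Rbm3-211, had their highest mean WT shares at ZT0. The gene was lowest at that time. The scarcer Rbm3-210 had its highest at ZT20 (1.37%). A highest mean at ZT0 was not limited to these forms. It was also seen in the coding Rbm3-204 (14.0%) and in the rare coding Rbm3-201 (0.500%) and Rbm3-205 (1.08%). The coding Rbm3-202, Rbm3-203 and Rbm3-206 had theirs at ZT16, ZT12 and ZT4. The fitted difference of the Rbm3-204 share was 0.73 (SE 0.30, peak at ZT 1.01), which did not pass the rhythm test in WT (adjusted p = 0.508). The poison-exon transcript Rbm3-208 made up 4.09% and 3.88% of Rbm3 at ZT0, 1.74% and 1.64% at ZT4, 1.24% and 1.79% at ZT8, 1.08% and 1.46% at ZT12, 2.90% and 3.42% at ZT16 and 2.95% and 3.14% at ZT20 in WT. No library from ZT4 to ZT12 overlapped the others, and the mean at ZT0 was the highest of the 6. The fitted difference was 1.58 (SE 0.37, peak at ZT 21.1), which did not pass over all shares (adjusted p = 0.114, unadjusted p = 0.00159). The level of Rbm3-208 itself was low, 0.869 to 2.89 TPM in WT. The number of reads behind its share is unknown, since TPM does not keep it. The 271-base exon of Rbm3-208 lies wholly inside an 832-base exon of Rbm3-209, so reads there had to be divided between them. Over the 24 libraries Rbm3-209 had a mean of 5.59 TPM and Rbm3-208 1.63 TPM. Rbm3-208 also has a last exon (chrX:8143028-8143332) that no other annotated Rbm3 transcript shares whole. Its share is therefore not a measure of the 271-base exon alone. Rbm3-207, which has the same 271-base exon, was at 0 in 23 libraries.

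Rbm3-211 had the largest fitted difference of the 12 shares tested in WT. It is a processed transcript of 2 exons, the last of which (chrX:8138975-8141208, 2234 bases) lies 1159 bases beyond the 3′ end of Rbm3-203 and is shared, nearly whole or in part, with the rare coding forms Rbm3-201 and Rbm3-205, so that reads there had to be divided among them. Its WT share was 8.999% and 7.70% at ZT0, 2.39% and 1.80% at ZT4, 1.26% and 1.93% at ZT8, 2.15% and 1.46% at ZT12, 4.59% and 3.63% at ZT16 and 5.41% and 4.94% at ZT20. Both ZT0 libraries were above all others, and those from ZT4 to ZT12 were below all from ZT16 to ZT0. The fitted difference was 2.35 (SE 0.45), with the peak at ZT 21.3 (SE 0.73 h; adjusted p = 0.0432). This call was lost in 17 of the 24 fits that left out 1 library (adjusted p up to 0.128). As a level, Rbm3-211 was 4.02 and 3.70 TPM at ZT0 and 0.968 and 1.57 TPM at ZT8, but its rhythm as a level did not pass (adjusted p = 0.0629). At ZT16 both the transcript (mean 3.37 TPM) and the gene (82.3 TPM) were high.

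Among the other Rbm3 forms, the coding Rbm3-203 gained share around dusk, with a difference of 0.77 (SE 0.14, peak at ZT 10.7, adjusted p = 0.0309), a call lost without any 1 of 7 WT libraries (adjusted p up to 0.110). It was also lost with no filter on low values (adjusted p = 0.0909), with time as a factor (0.116) and with each genotype fitted alone (0.158). Rbm3-209, which retains introns around the poison exon, kept a near-constant level of 4.67 to 5.71 TPM in WT and 5.16 to 7.16 TPM in KO. Its share moved by 0.98 (SE 0.21, peak at ZT 23.6) but did not pass (adjusted p = 0.0747). All coding Rbm3 transcripts together made up 75.2% to 90.5% of the gene in WT and 82.8% to 91.3% in KO. Whether the libraries keep strand is not given in the sources used here, so any reads from the opposite strand may be mixed with those of Rbm3.

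**Figure D4:**
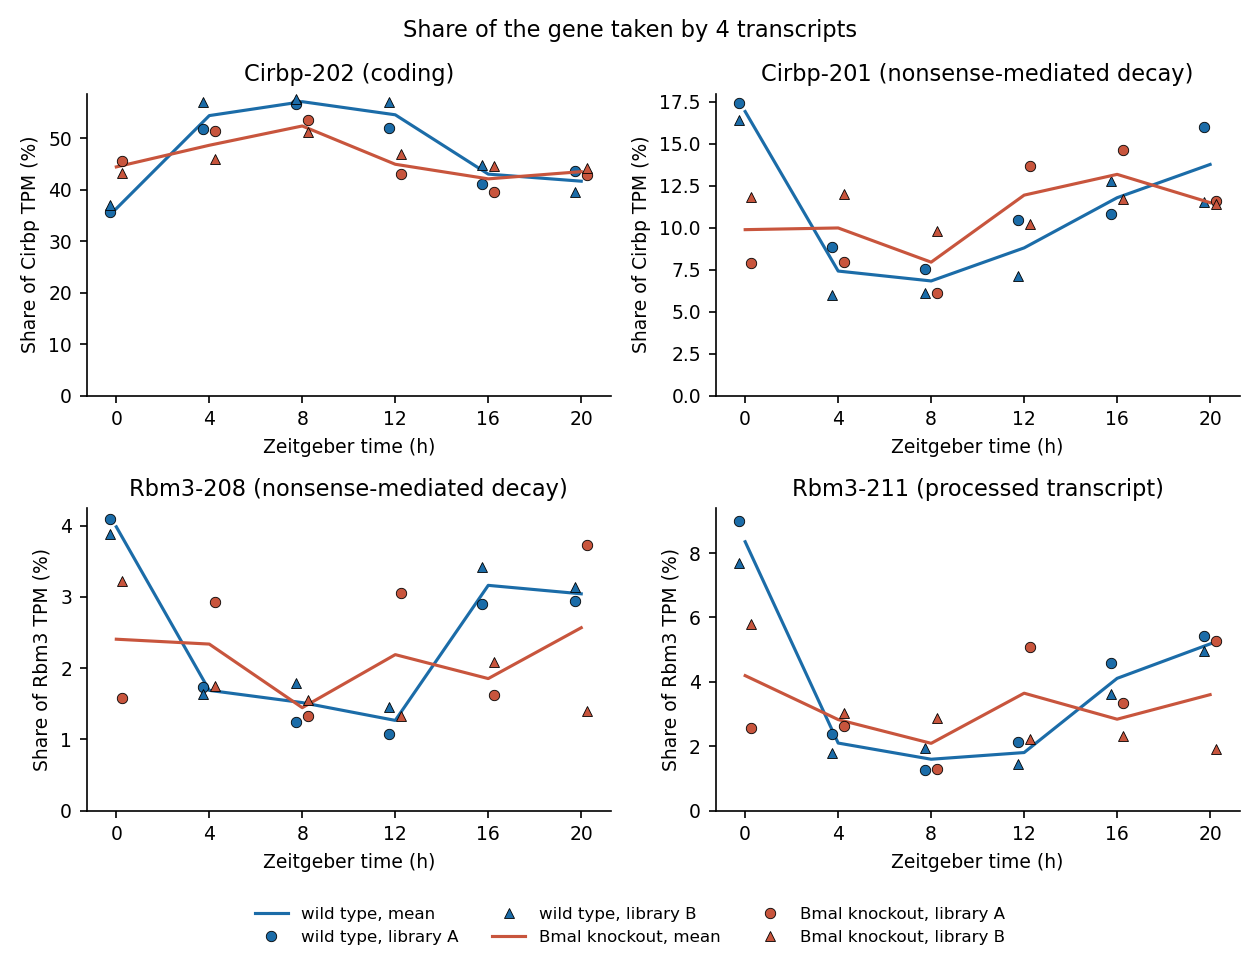
Share of the gene's TPM (%) taken by Cirbp-202, Cirbp-201, Rbm3-208 and Rbm3-211 against zeitgeber time in hours; circles are library A, triangles library B, and lines join the means of 2 libraries. In WT, Cirbp-202 is lowest and the other 3 are highest at ZT0, and in KO the 2 libraries of Rbm3-208 and Rbm3-211 lie far apart at ZT0, ZT12 and ZT20.

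No share of a member passed in KO, for the difference in rhythm or for the mean genotype difference. Over all shares, 0% passed the limma test in KO (1180 of 20307 at an unadjusted p under 0.05) and 0% for the difference in rhythm (1077 unadjusted), while 0.896% were called higher and 0.808% lower in KO. Among the 12 member shares, 1 in KO and 5 for the difference in rhythm had an unadjusted p under 0.05.

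The KO libraries nevertheless differed from each other in an ordered way, a pattern chosen after the values were seen. The lowest Cirbp levels in KO were 34.8 TPM in ZT12 A, 35.2 TPM in ZT20 A and 35.3 TPM in ZT0 B. These 3 libraries had the highest shares of Rbm3-211 in KO, 5.08%, 5.28% and 5.81%, and of Rbm3-208, 3.05%, 3.74% and 3.23%. Their partners at the same times had 57.4, 42.1 and 51.4 TPM of Cirbp, 2.21%, 1.93% and 2.57% of Rbm3-211 and 1.33%, 1.40% and 1.58% of Rbm3-208. The split did not follow the library letter.

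As a description with no test, since these libraries prompted it, log2 Cirbp level and log2 Rbm3-211 share had a Pearson's r of -0.82 and a Spearman's rho of -0.64 over the 12 KO libraries. Without the 2 libraries farthest from the median Cirbp level r was -0.66, and without KO ZT4 A and KO ZT12 A it was -0.79. For the Rbm3-208 share r was -0.76 and rho -0.75, with r at -0.70 and -0.76 after the same omissions. Within times, the KO library with more Cirbp had the lower Rbm3-211 share at 5 of 6 times, and likewise the lower Rbm3-208 share.

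In WT the same relations were r = -0.95 with rho -0.90 for Rbm3-211 and r = -0.93 with rho -0.84 for Rbm3-208. Without the 2 libraries farthest from the median Cirbp level r was -0.92 and -0.90. In both genotypes the libraries of 1 time share their place in the day, so the 12 points are not independent of time.

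**Figure D5:**
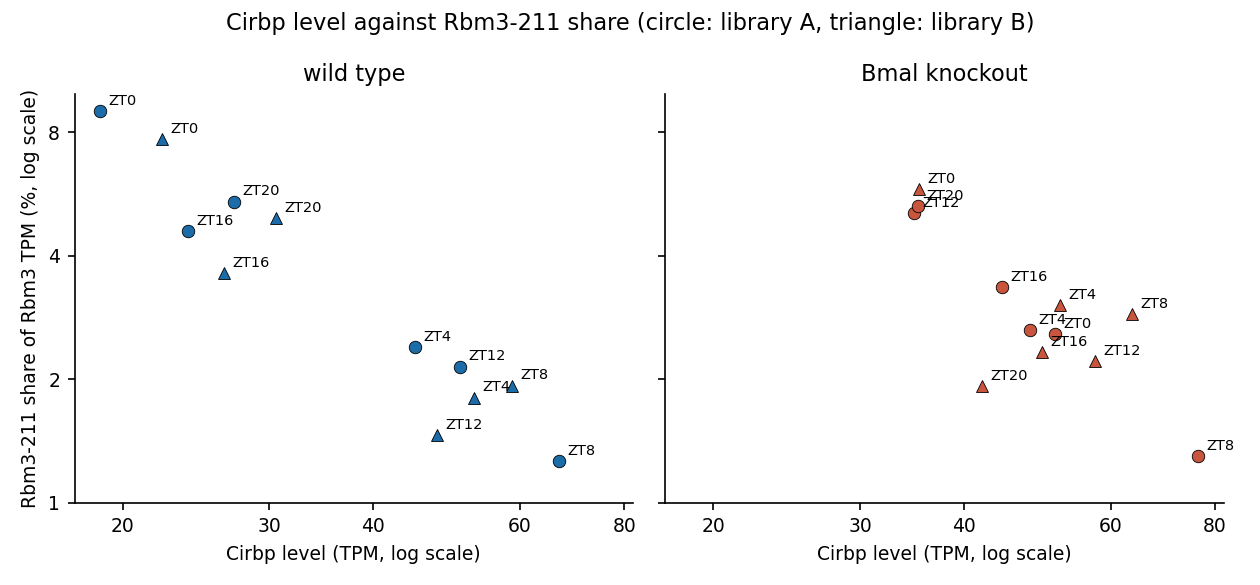
Cirbp level (TPM, log axis) against the share of Rbm3 taken by Rbm3-211 (%, log axis) in the 12 WT (left) and 12 KO (right) libraries, each point labelled with its zeitgeber time; circles are library A and triangles library B. In WT the points of ZT4 to ZT12 lie apart from those of ZT16 to ZT0. In KO the 3 libraries below 36 TPM of Cirbp come from ZT0, ZT12 and ZT20.

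Genes whose levels ran most like each member were found by Pearson's r of log2(TPM + 0.1) over the 24 libraries, as a description with no test. Cirbp was followed most closely by Rpain (r = 0.91), which carries replication protein A into the nucleus, then by Lrrc29 (0.90), Tk2 (0.90), the mitochondrial thymidine kinase, Tmem198b (0.89) and Rwdd3 (0.89), an enhancer of SUMO conjugation. Within KO alone r with Rpain was 0.95. The least alike were the histone gene Hist2h3c1 (-0.90), Fam173b (-0.89) and the co-chaperone gene Dnaja4 (-0.88), whose fitted WT peaks lay at ZT 21.0, 20.8 and 20.3.

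Rbm3 had a different set of nearest genes. These were Etnppl (r = 0.86), an enzyme that breaks down phosphoethanolamine, Akr1c13 (0.83), an aldo-keto reductase, Slc6a20a (0.83), an amino acid transporter, the amylase gene Amy1 (0.82) and Rab3d (0.80), a GTPase of secretory vesicles. The least alike were Trib2 (-0.82), Pamr1 (-0.79) and the fatty acid desaturase gene Fads1 (-0.78). Cirbp and Rbm3 themselves had r = 0.51 over the 24 libraries, 0.57 in WT and 0.08 in KO.

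Heat shock genes, which answer warming as Cirbp and Rbm3 answer cooling, peaked in the dark phase in WT. Of 20 listed and tested, 12 were rhythmic in WT, beside 13.7% of all genes, and the fitted peaks of all 12 fell in the dark phase, from ZT 19.01 to ZT 22.4. The chaperone gene Hsp90aa1 moved by 1.38 (SE 0.17, peak at ZT 21.5, adjusted p = 8.14e-05) and the co-chaperone gene Fkbp4 by 0.81 (SE 0.09, peak at ZT 21.4, adjusted p = 2.33e-05). The list's median peak-to-trough difference was 0.86 in WT, against 0.25 over all genes, and 0.54 in KO, against 0.21. In KO 3 passed (Fkbp4, Hsp90aa1 and Hsp90ab1), beside 3.64% of all genes, and 0 passed for the difference in rhythm (4 unadjusted). Without KO ZT4 A and KO ZT12 A, 5 passed in KO, beside 611 of 12874 genes. Over the day 3 were called higher in KO and 5 lower, with a median of -0.01, beside 50.9% and 10.0% of all genes. With median-of-ratios scaling 1 was called higher and 8 lower.

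Of 18 genes of splicing control listed and tested, 14 were called higher in KO and 0 lower, beside 50.9% and 10.0% of all genes, with a median of 0.20 against 0.15 over all genes. With median-of-ratios scaling 5 were called higher and 0 lower, beside 22.1% and 22.2% of all genes, with a median of 0.05. In WT 6 were rhythmic, beside 13.7% of all genes, 0 in KO (3 unadjusted) and 0 for the difference in rhythm (2 unadjusted). Tra2a, a splicing activator, peaked at ZT 20.3 with a difference of 1.11 (SE 0.20, adjusted p = 0.00243), and Srsf5, an SR splicing factor, peaked at ZT 9.62 with a difference of 0.37 (SE 0.08, adjusted p = 0.0146). Clk1 and Clk4, kinases of SR proteins whose activity is known to respond to temperature, were higher in KO by 0.38 (adjusted p = 4e-05) and 0.29 (adjusted p = 2.26e-05), or by 0.23 and 0.15 with median-of-ratios scaling (adjusted p = 0.00125 and 0.00603). Neither was called rhythmic in WT (adjusted p = 0.361 and 0.496).

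Of 11 other RNA-binding protein genes, 10 were called higher in KO, beside 50.9% of all genes, with a median of 0.23 against 0.15; with median-of-ratios scaling it was 3, beside 22.1%. In WT 3 were rhythmic, beside 13.7% of all genes (6 without KO ZT4 A and KO ZT12 A, beside a count of 2559 of 12874 genes), 1 in KO and 0 for the difference in rhythm (0 unadjusted). Tardbp, which encodes TDP-43, peaked at ZT 21.0 with a difference of 0.90 (SE 0.10, adjusted p = 2.74e-05) and passed in KO as well (0.74, SE 0.10, adjusted p = 0.00121). Rbmx and Rbmxl1, which encode relatives with the same kind of RNA recognition motif, were not called rhythmic in WT (adjusted p = 0.892 and 0.0801).

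Clock genes give the scale of the knockout's effect. Of 18 listed, 17 were tested (Bhlhe41 was below the filter). In WT 16 were rhythmic, 1 in KO (Per1) and 7 differed in rhythm, beside 13.7%, 3.64% and 0.629% of all genes. Without KO ZT4 A and KO ZT12 A, 16 were rhythmic in WT and 0 in KO, beside 2559 and 611 of 12874 genes. With all libraries the median peak-to-trough difference was 2.97 in WT and 0.63 in KO. Dbp, a clock output factor, moved by 6.04 (SE 0.24) in WT and by 0.63 (SE 0.24) in KO, and the test of that difference gave an adjusted p of 1.51e-09. Cirbp moved by 1.49 and 0.62 in the same fits.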

How the data were processed

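PolyA RNA of 24 mouse kidney libraries was analysed, with groups, times and letters from the labels. The 20 chromatin contact libraries of the series were not used here. The authors deposited TPM per transcript, made with kallisto 0.42.4 against mm10 or GRCm38 per the submitters' processing notes. TPM totals 999999 to 1000001 in each library and keeps no depth, so no counting interval was computed.

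Transcripts were summed to genes through GENCODE M21 (GRCm38) by Ensembl identifier without version; 86119 of 88198 matched, and the 2079 others held 1.35% to 2.24% of TPM. limma 3.58.1 in R 4.3.3 (trended, robust eBayes) was run on log2(TPM + 0.1) for 12874 genes, 26201 transcripts and 20307 transcript shares with means of at least 1 TPM (for shares, of the transcript and of the rest of its gene), with Benjamini-Hochberg adjustment over all features of a kind and a threshold of 0.05. The genotype difference had time as a factor of 6 levels. Rhythm was the moderated F test of a 24-hour cosine and sine in each genotype, with 1 spread for both. Differences at each time came from means of 12 groups. Correlations are descriptions with no test. On simulated data with 12874 genes and changes of 1 on the log2 scale, 97% of genotype differences, 79% of WT rhythms and 69.2% of rhythm differences were recovered. There 200 genes differed by genotype, far fewer than the 7844 called here. The members' peak-to-trough differences, KO minus WT, were smaller in size than simulated, at -0.87 for Cirbp and -0.67 for Rbm3. These rates therefore do not give the power of the tests on the members.

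The members and gene lists were chosen with earlier results of these data known. Named genes were the members, the 5 most and 3 least correlated genes of each, and list genes passing a test, at most 4 per test; other genes named were picked with their values in view. The result of 1 list gene that the rule names is not reported here. Alternatives were 2 other pseudocounts, 2 filters, 2 scalings, a replicate block, plain eBayes, time as a factor, each genotype alone, no time term, and leaving out each library. Leaving out KO ZT4 A and KO ZT12 A together, and counting the lists under other scalings, were chosen after seeing the data.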

Additional observations from a re-analysis of the deposited data

How the results depend on the processing

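The rhythm of Cirbp (1.37 to 1.71) and Rbm3 (0.83 to 0.97) in WT passed under all alternatives and without any 1 library. The genotype difference of Cirbp (0.33 to 0.48 without 1 library) did not pass with median-of-ratios scaling (0.26, adjusted p = 0.116) or with no time term (0.40, adjusted p = 0.0831). That of Rbm3 (0.20 to 0.28 without 1 library) did not pass with no filter (0.24, adjusted p = 0.0661), median-of-ratios scaling (0.092, adjusted p = 0.473), rescaling without mitochondrial genes (0.18, adjusted p = 0.145) or no time term (0.24, adjusted p = 0.0908). The cause was not tested.

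For shares in WT, Cirbp-202 (1.19) did not pass with each genotype fitted alone (adjusted p = 0.0859). Cirbp-201 passed with a pseudocount of 1 TPM (1.38, adjusted p = 0.0376), and without 1 library ranged from 1.26 to 1.60. Rbm3-211 (2.35; 2.13 to 2.54 without 1 library) did not pass with no filter (adjusted p = 0.0902), time as a factor (0.246) or each genotype alone (0.0716). With the replicate block it was 2.35 as well (adjusted p = 0.0522); the block ended no call of either gene as a whole. The letters were not taken to pair libraries, since A minus B correlated between groups from -0.323 to 0.338 (median 0.0223; 21 of 66 over 0.1).

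The count of genes rhythmic in WT (1761) was 576 with time as a factor and 2843 with each genotype alone. In KO (468) it was 295 with no filter, 28 with time as a factor, 12 with each genotype alone and 272 to 626 without 1 library. Rhythm differences (81) numbered 43 with no filter, 23 with time as a factor and 37 to 112 without 1 library. Rhythmic shares in WT (100) ranged from 20 to 115 over the settings and from 44 to 129 without 1 library. At ZT4, 0 genes differed (1637 unadjusted), but 1894 did without KO ZT4 A and KO ZT12 A.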
